A study of Rattus norvegicus with 6 samples.

Results

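Cytochrome P450 enzymes of families 2, 3 and 4 were examined in rat liver after faecal microbiota transplantation. The members were the rows of the gene table whose symbol was Cyp2, Cyp3 or Cyp4 followed by a subfamily letter and a number and nothing else. By this rule 47 of the 30957 rows were members, carrying 43 different names. All recipients were female Sprague Dawley rats that arrived at 3 weeks of age and first drank an antibiotic cocktail in 3 courses of 7 days, a treatment that both groups shared. They were then given faeces of donor rats by oral gavage for 14 days. In the t-PBS group the pooled donor faeces came from rats injected with phosphate buffered saline. In the t-DHEA group the donors had been injected with dehydroepiandrosterone, an androgen precursor, at 6 mg per 100 g bodyweight. The experiment held 6 recipients per group, and 3 livers of each were sequenced here, so that p-values measure the spread between these rats, which shared pooled transplants within a group. The question was whether the transplant from DHEA-treated donors went with other levels of these transcripts.

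These P450s are haem enzymes of the endoplasmic reticulum that add oxygen to their substrates using electrons passed on by P450 reductase and cytochrome b5. Families 2 and 3 are known for the oxidation of drugs, steroids and other lipids, and family 4 for the omega-hydroxylation of fatty acids and eicosanoids. In rat liver several of them differ strongly between the sexes under the control of growth hormone secretion, and others are induced through the nuclear receptors CAR, PXR and PPAR-alpha. Many lie in clusters of closely similar copies, which bears on how reads are assigned to them.

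The 6 libraries held between 12348511 and 14316886 counts. Of the 47 rows, 39 had at least 1 count, and 8 were at 0 in every liver. A count of 0 allowed a level of up to 0.210 to 0.243 CPM (counts scaled to the library total), which is 3 counts in the respective library. The rows at 0 were Cyp2b12, Cyp2c7, Cyp2g1, Cyp2w1, Cyp4f6, Cyp4f40 and both rows named Cyp4f37. A further 5 rows had counts but did not pass the filter on low values, namely Cyp2b21, Cyp3a2, Cyp4f18, Cyp4x1 and 1 of the 2 Cyp2c13 rows. The remaining 34 rows were tested.

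Between genes, levels were compared as FPKM, which divides by gene length. Cyp2c12, the female-specific steroid sulphate hydroxylase of rat liver, was the highest member at a mean of 3514 FPKM over the 6 livers, with 3399 ± 227 in t-PBS and 3630 ± 140 in t-DHEA (SD, n = 3 each). Cyp2e1, the ethanol-oxidising P450, followed at 926 FPKM, then Cyp2d2 at 683, Cyp2c23, an arachidonic acid epoxygenase, at 647, and Cyp2c22, a retinoic acid hydroxylase, at 503. The gap from Cyp2c12 to Cyp2e1 was wider than the spread of either, whereas Cyp2d2 and Cyp2c23 overlapped. Cyp4f1, a fatty acid hydroxylase, stood at 329 FPKM, and Cyp2b3, Cyp2d5, Cyp4a2, Cyp2a3 and Cyp2d3 lay between 101 and 211 FPKM. The rows of Cyp2a3 and Cyp2d3 are long, which lowers their FPKM. The lengths implied by counts and FPKM were 7.92 kb and 4.37 kb, beside 1.67 kb for Cyp2d2. By mean CPM, Cyp2a3 was at 939 in t-PBS and 1172 in t-DHEA, close to Cyp2d2 at 1185 and 1105. In contrast, Cyp2c11, the principal male-specific P450, reached only 1.01 FPKM, Cyp2c13 1.41 FPKM in its higher row, and Cyp3a2, another male-predominant gene, 0.0751 FPKM. The high Cyp2c12 and low Cyp2c11, Cyp2c13 and Cyp3a2 are the direction known for female rat liver. Other members of the sex-predominant lists did not clearly show it. The male-predominant Cyp4a2 was at 136 (higher row) and 5.78 FPKM (lower row), and Cyp3a18 at 15.6 FPKM. The table has no row named Cyp4a3, so the rows named Cyp4a2 may hold reads of that gene, which was not tested. No male livers were sequenced, so these levels were not compared between the sexes. The female-predominant Cyp2c7 row was at 0. However, LOC100361547, annotated as 2C7-like and outside the rule, was at 3957 to 7113 FPKM. The 0 therefore does not show that Cyp2c7 is absent.

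**Figure D1:**
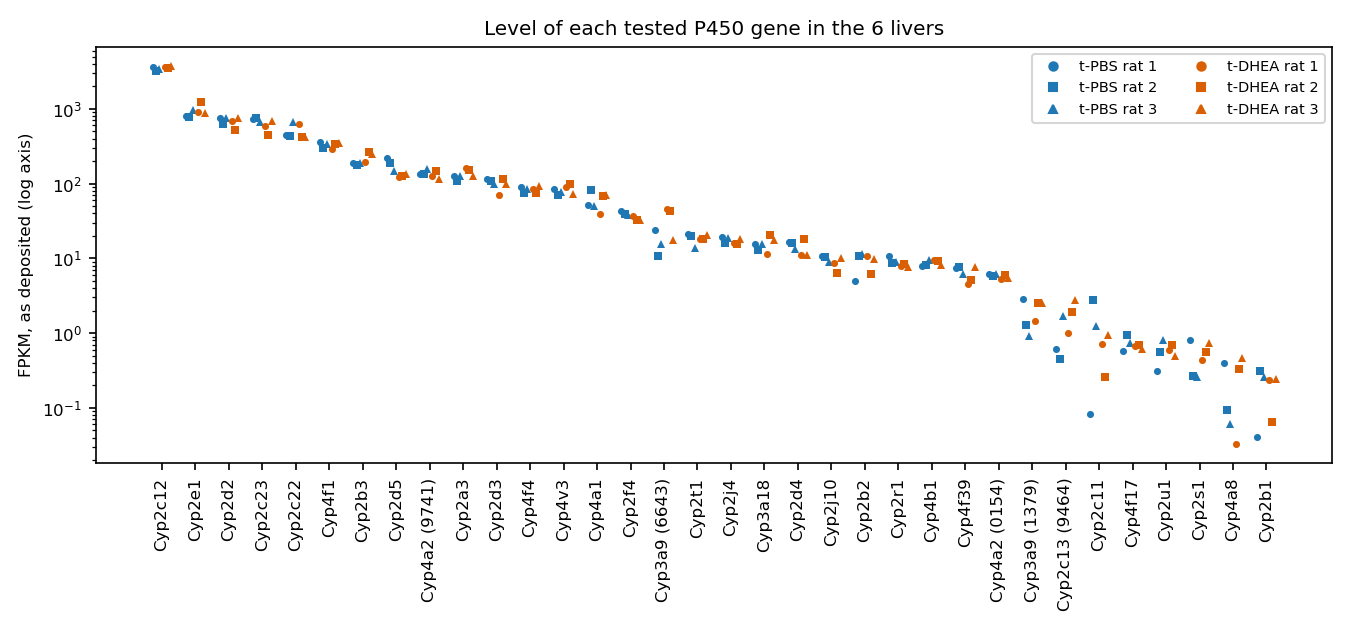
FPKM of the 34 tested P450 rows in each of the 6 livers on a log axis, with genes ordered by their mean; blue marks are t-PBS and orange marks t-DHEA, the shape gives the rat, and rows that share a name carry the last digits of their identifier. Cyp2c12 lies above all others in every liver, and rows near or below 1 FPKM such as Cyp2c11 and Cyp4a8 scatter widely between rats.

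All member rows together took 1.62%, 1.48% and 1.63% of the counts in t-PBS rats 1 to 3, against 1.61%, 1.63% and 1.64% in t-DHEA rats 1 to 3. The ranges overlapped, since t-PBS rats 1 and 3 lay within the t-DHEA range and t-PBS rat 2 was the lowest. With TMM scaling, which corrects for the make-up of each library, the summed CPM of all members had a log2 ratio of 0.086. The groups did not overlap in this sum, as was the case for 10.1% of all genes tested singly. The 95% Wilson intervals extended at most 0.00703 percentage points to either side and cover counting error only. Subfamily 2C alone held 46.5% to 52.7% of the member counts, 2E 12.5% to 18.9%, 2D 9.77% to 13.3%, 2A 5.74% to 7.92% and 4F 5.26% to 6.30%. Family 3 was a small fraction, at 0.00440% to 0.0111% of all counts.

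Of the subfamilies with tested rows, 3 did not overlap between the groups in unscaled shares, as was the case for 11.1% of all genes, and of these only 2B also did not overlap with TMM scaling. Subfamily 2B stood at 0.0522%, 0.0506% and 0.0532% of counts in t-PBS and 0.0538%, 0.0730% and 0.0679% in t-DHEA. Most of the 2B counts in every liver were those of Cyp2b3 alone, for example 8615 of 8887 in t-DHEA rat 3. Subfamily 2F, with Cyp2f4 as its single row, stood at 0.00613% to 0.00708% in t-DHEA against 0.00721% to 0.00817% in t-PBS, and the counting intervals of the nearest livers overlapped. Subfamily 2R, the vitamin D 25-hydroxylase Cyp2r1, stood at 0.00131% to 0.00143% against 0.00145% to 0.00183%. In 2B and 2R, too, the counting intervals of the nearest livers overlapped. Subfamily 3A had a summed log2 ratio of 0.69 with overlapping groups, since t-DHEA rat 3 fell within the t-PBS range. No test was run on the sums. In bulk tissue, fewer cells of a type and less RNA per cell cannot be told apart.

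**Figure D2:**
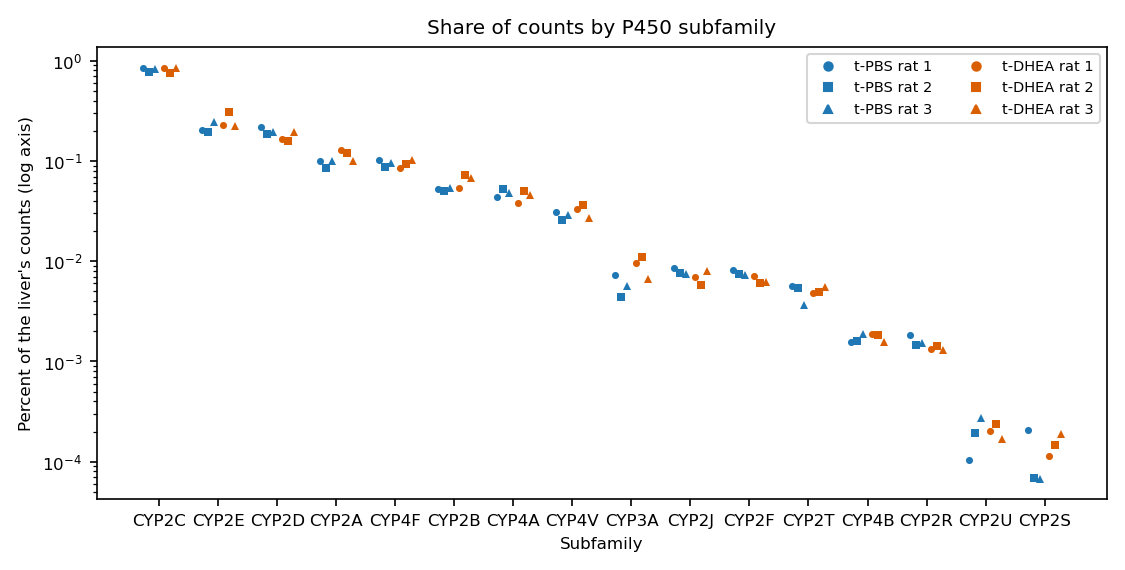
Percent of each liver's counts assigned to each P450 subfamily with a tested row, on a log axis; blue marks are t-PBS, orange marks t-DHEA and the shape gives the rat. The 2C subfamily takes 0.759% to 0.855% of counts in every liver, and most subfamilies overlap between the groups.

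Between the groups, 4 of the 34 tested rows passed the criteria used in the study, which were a p below 0.05 before adjustment together with a change of more than 1.2-fold. Cyp3a9, Cyp2b3 and Cyp2a3 were upregulated in t-DHEA livers and Cyp2d5 was downregulated. This was 11.8% of the tested members, beside 4.95% of all 12210 genes tested, of which 1.97% were higher and 2.98% lower. By edgeR's quasi-likelihood test no member had a Benjamini-Hochberg adjusted p under 0.05, the lowest being 0.805, and no gene in the table did, although 634 genes, 5.19%, had an unadjusted p below 0.05. DESeq2 gave 24 genes in the table with an adjusted p below 0.05. The members had log2 fold changes above 0 in 17 rows and below 0 in 17, where 50.4% of all genes were above 0, with a median of 0.0021 beside 0.0013 for all genes tested. Their median absolute log2 fold change was 0.17 beside 0.11. In 2 rows, Cyp2b3 and Cyp2d5, the CPM values of the groups did not overlap, 5.88% of the members beside 10.1% of all genes. The smallest two-sided p that exact permutation of 3 livers against 3 allows is 0.1. The 30 tested rows that were not called had adjusted p-values from 0.973 to 0.999.

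**Figure D3:**
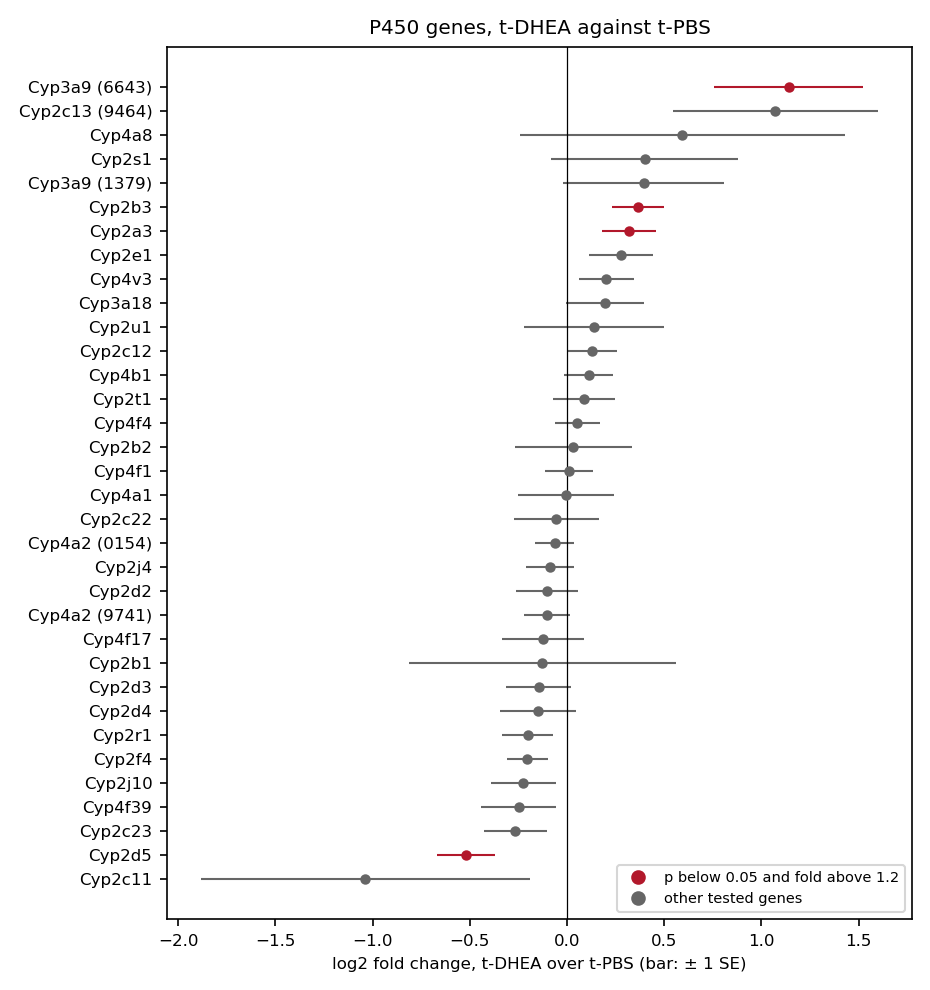
Log2 fold change (t-DHEA over t-PBS) of the 34 tested P450 rows with bars of 1 standard error; red marks met the study criteria and grey marks did not. The 4 red rows are Cyp3a9, Cyp2b3 and Cyp2a3 above 0 and Cyp2d5 below 0, and the bars are longest for rows with few counts such as Cyp2c11 and Cyp4a8.

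To show what lies in front of the 4 called genes, the 250 bases upstream of each RefSeq transcription start (build GRCr8) are printed 5′ to 3′ on the gene's strand, with TATAAA on either strand in capitals.
Cyp2d5 (chr7:115784488-115784737, minus strand): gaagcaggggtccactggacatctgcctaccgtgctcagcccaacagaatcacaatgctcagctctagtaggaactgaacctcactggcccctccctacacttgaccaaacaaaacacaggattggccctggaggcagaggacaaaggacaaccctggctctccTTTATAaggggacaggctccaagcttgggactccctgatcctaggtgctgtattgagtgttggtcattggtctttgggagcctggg
Cyp2a3 (chr1:91299334-91299583, plus strand): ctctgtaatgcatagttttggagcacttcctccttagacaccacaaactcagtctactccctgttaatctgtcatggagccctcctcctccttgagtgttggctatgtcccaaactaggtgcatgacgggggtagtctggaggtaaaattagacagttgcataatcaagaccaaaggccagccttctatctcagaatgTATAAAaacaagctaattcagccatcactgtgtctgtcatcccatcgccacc
Cyp2b3 (chr1:90780242-90780491, plus strand): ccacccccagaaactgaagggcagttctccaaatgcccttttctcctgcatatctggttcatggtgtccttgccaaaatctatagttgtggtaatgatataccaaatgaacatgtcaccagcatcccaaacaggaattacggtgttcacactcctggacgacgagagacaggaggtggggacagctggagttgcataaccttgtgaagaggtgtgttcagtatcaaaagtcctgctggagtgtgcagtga
Cyp3a9 (chr12:21960161-21960410, minus strand): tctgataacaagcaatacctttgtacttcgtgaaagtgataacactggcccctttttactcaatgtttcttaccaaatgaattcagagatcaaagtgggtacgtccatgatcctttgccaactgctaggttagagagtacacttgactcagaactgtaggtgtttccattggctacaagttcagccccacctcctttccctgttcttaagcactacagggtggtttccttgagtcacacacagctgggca
The TATAAA match began 52 bases before the start in Cyp2a3 and 86 bases before it in Cyp2d5. Cyp2b3 and Cyp3a9 held no match in this window.

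RefSeq windows were found for 39 of the 43 names, 42 windows in all, and TATAAA occurred in 10 of them (23.8%), beside 12.9% of 33469 promoter windows of the same length. The letters TTANGTAA, a form of the motif bound by the PAR bZIP factors, were in 2 (Cyp2b2 and Cyp2g1; 2.04% of all windows), and CAAAGTCCA, a form of the HNF4 motif, in 1 (Cyp3a2; 0.338%). Both strands were searched, and no 2 different motifs matched within 9 bases of each other. A match is a description of the letters.

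Cyp2d5 encodes a drug-oxidising enzyme of the 2D subfamily and lies on chromosome 7 between 123616596 and 123621102 (Rnor_6.0). It was at 356, 293 and 233.7 CPM in t-PBS livers and 197, 202 and 217 CPM in t-DHEA livers, so every t-DHEA liver was below every t-PBS liver. The means were 294 ± 61.2 and 205 ± 10.7 CPM (SD, n = 3 each), a log2 fold change of -0.52 ± 0.15 (SE), or a fold of 0.698 (edgeR adjusted p = 0.805). The exact permutation test gave p = 0.1, the smallest this design allows. Cyp2d5 kept its call in all 13 alternative fits. The neighbouring Cyp2d3, another 2D enzyme, had a log2 fold change of -0.15, Cyp2d4 one of -0.15 and Cyp2d2 one of -0.10, and none of them was called. Those of Cyp2d2 and Cyp2d3 turned when single livers were left out. The table has no row named Cyp2d1, which RefSeq places between Cyp2d5 and Cyp2d3. Their rows may hold reads of that gene, which was not tested. The Cyp2d3 row covers 13.2 kb, and the length implied by its counts and FPKM was 4.37 kb, beside 1.59 kb for Cyp2d5.

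Cyp3a9, a female-predominant steroid hydroxylase of family 3, had 2 rows. That with identifier ENSRNOG00000046643, on chromosome 12 from 19074583 to 19114399, was at 36.0, 15.4 and 23.5 CPM in t-PBS and 71.4, 66.7 and 27.2 CPM in t-DHEA. In t-DHEA rats 1 and 2 it was above all t-PBS livers, but t-DHEA rat 3 lay inside their range. The log2 fold change was 1.14 ± 0.38 (SE), a fold of 2.20 (edgeR adjusted p = 0.900), and the exact permutation test gave p = 0.2. The call was lost without t-DHEA rat 1, and the log2 fold change ranged from 0.89 to 1.503 as each liver was left out. The second Cyp3a9 row, ENSRNOG00000001379, held 22 to 75 counts per liver and had a log2 fold change of 0.40 ± 0.41 (SE). The table has no row named Cyp3a62, which RefSeq places next to Cyp3a9, so either row named Cyp3a9 may hold reads of that gene. Cyp3a18, a steroid hydroxylase of the same subfamily, had one of 0.20 ± 0.20 (SE).

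Cyp2b3 is described as a constitutive member of the otherwise phenobarbital-inducible 2B subfamily, located on chromosome 1 from 83163079 to 83236615. It gave 514, 465 and 508 CPM in t-PBS and 525, 726 and 666 CPM in t-DHEA. The groups did not overlap, but t-DHEA rat 1 lay just above the highest t-PBS liver. The log2 fold change was 0.37 ± 0.13 (SE), a fold of 1.29 (edgeR adjusted p = 0.930), and the exact permutation test gave p = 0.1. The call was lost on leaving out t-PBS rat 2, t-DHEA rat 2 or t-DHEA rat 3, with log2 fold changes of 0.27 to 0.49 over all 6 such fits. The inducible Cyp2b2 had a log2 fold change of 0.031 ± 0.30 (SE) and the row named Cyp2b1, which the table places on another chromosome than RefSeq and which may not be this gene, of -0.13 ± 0.69 (SE). Both turned in direction under other settings.

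Cyp2a3, on chromosome 1 from 83653234 to 83766484, was at 995, 814 and 1008 CPM in t-PBS and 1302, 1210 and 1004 CPM in t-DHEA, and the groups overlapped. Its log2 fold change was 0.32 ± 0.14 (SE), a fold of 1.25 (edgeR adjusted p = 0.957), and the exact permutation test gave p = 0.2. Cyp2a3 was called in 6 of 13 alternative fits and in 1 of the 6 that left out 1 liver. Its row covers 113 kb, and the length implied by its counts and FPKM was 7.92 kb, beside 1.59 kb for Cyp2d5. The table has no row named Cyp2a1 or Cyp2a2, which RefSeq places next to Cyp2a3. The Cyp2a3 row may hold reads of those genes, which was not tested.

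**Figure D4:**
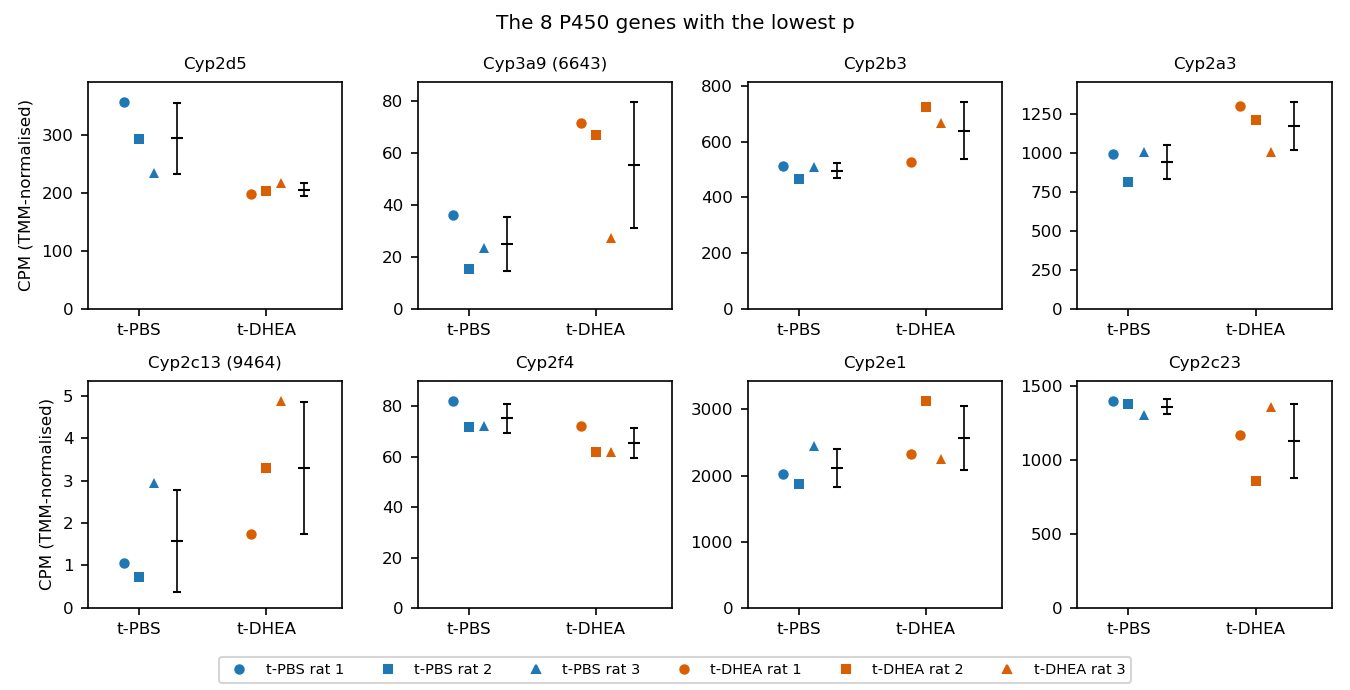
TMM-normalised CPM of the 8 P450 rows with the lowest p, per liver, with axes from 0; the black mark and bar give the group mean and 1 SD (n = 3), and blue marks are t-PBS and orange marks t-DHEA. Cyp2d5 and Cyp2b3 do not overlap between groups, and in Cyp3a9 and Cyp2a3 t-DHEA rat 3 lies within the t-PBS range.

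The 4 members with the next lowest p did not pass. The higher Cyp2c13 row, of a male-predominant 2C enzyme, had 15, 10 and 39 counts in t-PBS and 21, 44 and 63 in t-DHEA, giving a log2 fold change of 1.07 ± 0.53 (SE) and an exact permutation p = 0.2. Cyp2f4 was at 82.0, 71.8 and 72.1 CPM against 72.2, 62.02 and 62.03 CPM, a log2 fold change of -0.20 ± 0.10 (SE) and an exact permutation p = 0.3. Cyp2e1 was at 2029, 1874 and 2440 CPM against 2321, 3120 and 2252 CPM, with 0.28 ± 0.16 (SE) and an exact permutation p = 0.3. Cyp2c23 was at 1395, 1378 and 1301 CPM against 1171, 860 and 1355 CPM, with -0.27 ± 0.16 (SE) and an exact permutation p = 0.2. In each of them 1 or more t-DHEA livers lay among the t-PBS livers.

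Among the largest fold changes in either direction, some came from rows with few counts. Cyp2c11 held 2, 62 and 28 counts in t-PBS and 15, 6 and 21 in t-DHEA, with a log2 fold change of -1.04 ± 0.85 (SE). Its value moved to -0.012 without t-PBS rat 2, so that 1 liver decided it. Cyp4a8 held 14, 3 and 2 counts against 1, 11 and 15 (0.59 ± 0.84, SE), and Cyp2s1, a mainly extrahepatic enzyme, 30, 9 and 9 against 14, 20 and 25 (0.40 ± 0.48, SE). Better counted rows at the negative end, beside Cyp2d5 and Cyp2c23, were Cyp4f39 and Cyp2j10 with log2 fold changes of -0.25 ± 0.19 and -0.22 ± 0.17 (SE).

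The fatty acid omega-hydroxylases of family 4, targets of PPAR-alpha among them, gave no call in 9 tested rows, of which 4 had a log2 fold change above 0. Cyp4a1, the lauric acid hydroxylase, was at 145, 221 and 141 CPM against 111, 192 and 202 CPM and had a log2 fold change of -0.0058 ± 0.24 (SE), whose sign turned under other settings. The main Cyp4a2 row had -0.10, Cyp4f1 0.010, Cyp4f4, a leukotriene hydroxylase, 0.054, and Cyp4v3, a fatty acid hydroxylase, 0.20, those of Cyp4f1 and Cyp4f4 turning under other settings. Of single-row subfamilies not described so far, Cyp4b1 had a log2 fold change of 0.11, Cyp2t1 0.087, Cyp2u1 0.14 and Cyp2r1 -0.20, with standard errors of 0.13 to 0.36. Cyp2j4, an arachidonic acid epoxygenase, had -0.087 ± 0.12 (SE), and of the 4 tested epoxygenases, which include Cyp2c11, all were below 0 and none passed the test.

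Sex-predominant members were also counted by lists. Of 5 tested male-predominant rows none was called. Of 3 tested female-predominant rows, of which 2 carry the name Cyp3a9, 1 was called, beside 4.95% of all genes. The list of inducible P450s had 6 tested rows with a median of 0.28 beside 0.0013 for all genes, and 2 of them were called higher, where 1.97% of all genes were. These were the same Cyp3a9 row and Cyp2b3, itself described as constitutive, while the phenobarbital-inducible Cyp2b2 was not called. The inducible Cyp3a23/3a1 and Cyp2c6v1 carry other names in the table than in the list and were not counted. Their log2 fold changes were 0.0043 ± 0.28 and 0.11 ± 0.14 (SE), and neither met the criteria. Cyp2c12, the member with the highest FPKM, had a log2 fold change of 0.13 ± 0.12 (SE).

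The copies of these genes limit what a single row can show. LOC100361547, annotated as a 2C7-like P450 and left out by the name rule, held more counts than any member at 142437, 112432 and 86221 in t-PBS and 144581, 152230 and 100230 in t-DHEA, or 0.651% to 1.17% of all counts. Its log2 fold change was 0.33 ± 0.21 (SE; edgeR adjusted p = 0.986). The row named Cyp2c7 was at 0 in every liver. Cyp2c6v1, a second 2C gene outside the rule, took 0.242% to 0.312% of counts and had a log2 fold change of 0.11 ± 0.14 (SE). In all, 12 rows of these families were outside the rule, 7 with counts, and took 0.915% to 1.49% of counts. With them, the share of counts was 2.54% to 2.91% in t-PBS and 2.66% to 3.10% in t-DHEA, still overlapping.

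Some gene pairs of these families also have closely similar promoters, but most do not. Transcript sequences were not compared, and promoter identity does not show whether reads of similar copies can be told apart. Among RefSeq genes of these families, the median identity of the 250 upstream bases was 51.1% within a subfamily (173 pairs) and 49.1% between subfamilies (1829 pairs, at most 55.6%). Cyp4a2 and Cyp4a3 were at 92.5%, Cyp2d1 and Cyp2d3 at 89.0% and Cyp2b1 and Cyp2b2 at 84.3%. For the called genes, the closest was Cyp2d3 for Cyp2d5 at 70.9%, Cyp2b21 for Cyp2b3 at 67.9%, Cyp3a62 for Cyp3a9 at 66.8% and Cyp2a1 for Cyp2a3 at 54.8%. Cyp4a2 and Cyp4a3 are set side by side, with bases that differ or are missing in the other in capitals, because the table has 2 rows named Cyp4a2 and none named Cyp4a3.
Cyp4a2 (chr5:134170909-134171158, minus strand): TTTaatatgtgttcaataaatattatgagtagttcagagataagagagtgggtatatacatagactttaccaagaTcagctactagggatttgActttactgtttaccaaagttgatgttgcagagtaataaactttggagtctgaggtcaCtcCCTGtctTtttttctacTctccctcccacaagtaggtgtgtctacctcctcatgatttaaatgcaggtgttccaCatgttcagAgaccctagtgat
Cyp4a3 (chr5:134352237-134352486, minus strand): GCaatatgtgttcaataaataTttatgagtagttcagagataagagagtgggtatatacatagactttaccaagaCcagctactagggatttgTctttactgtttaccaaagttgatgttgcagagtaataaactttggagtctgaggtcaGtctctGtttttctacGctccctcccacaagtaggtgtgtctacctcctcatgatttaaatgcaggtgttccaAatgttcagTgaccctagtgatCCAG
They differed at 19 of 255 aligned positions. The 2 Cyp4a2 rows of the table had log2 fold changes of -0.10 and -0.064 and neither was called. Cyp2b1 is on chromosome 7 in the table but on chromosome 1 in RefSeq, and it held 2 to 14 counts per liver.

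Cyp2t1 overlaps Egln2, whose row held 6532 counts over the 6 livers beside 3993 for Cyp2t1, and Cyp3a2 overlaps a 3A1-like row. Cyp2t1 runs from 83965608 to 83969559 on chromosome 1, and only the end from 83969457 on is shared with Egln2. Whether counting used strand was not given in the sources used here, so that reads within such shared stretches cannot be told apart.

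Genes that serve the P450s were counted from lists. Of 7 electron transfer genes, 1 was called lower, beside 2.98% of all genes. It was Cyb5r1, a cytochrome b5 reductase, at 6.73, 6.05 and 7.02 CPM in t-PBS and 5.20, 4.94 and 4.64 CPM in t-DHEA (log2 fold change -0.42, edgeR adjusted p = 0.930). That call was lost under DESeq2 and without t-PBS rat 1, t-PBS rat 3 or t-DHEA rat 3. Por, the P450 reductase, had a log2 fold change of 0.23 ± 0.19 (SE). Of 12 haem genes none was called, Alas1, the first enzyme of haem synthesis, having a log2 fold change of 0.24 ± 0.10 (SE), a fold below 1.2. Of 20 rows of transcription factors known for P450 genes, 3 were called higher and 1 lower, beside 1.97% and 2.98% of all genes. Tef (log2 fold change 0.67, edgeR adjusted p = 0.815), Foxa3 (0.39, adjusted p = 0.815) and Dbp (1.16, adjusted p = 0.909) were higher and Foxa1 (-0.43, adjusted p = 0.900) was lower. Tef and Foxa3 were called in all 13 alternative fits. The call of Dbp was lost without t-PBS rat 1, t-PBS rat 2, t-DHEA rat 1 or t-DHEA rat 3, and that of Foxa1 without t-PBS rat 1, t-PBS rat 2, t-DHEA rat 2 or t-DHEA rat 3. Tef and Dbp are PAR bZIP factors with daily rhythms, and Foxa1 and Foxa3 are liver forkhead factors. No gene of 10 in the growth hormone axis was called, and Cux2, a female-biased factor, had a log2 fold change of 0.27 ± 0.13 (SE).

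Of 12 tested targets of CAR and PXR outside these families 1 was called lower, beside 2.98% of all genes. It was Slco1a4, an organic anion transporter (log2 fold change -0.56, edgeR adjusted p = 0.930). The call of Slco1a4 was lost without t-PBS rat 3, t-DHEA rat 2 or t-DHEA rat 3. Of 15 PPAR-alpha targets 1 was called lower, beside the same 2.98%, namely Plin2, a lipid droplet protein (log2 fold change -0.45, edgeR adjusted p = 0.796). Of the 2 tested epoxide hydrolases, Ephx2 had a log2 fold change of -0.91 ± 0.47 (SE) and Ephx1 of -0.46 ± 0.31 (SE), and neither was called. Of 13 tested P450 genes of other families 2 were called higher, beside 1.97% of all genes. Both are of bile acid synthesis: Cyp7a1 (log2 fold change 1.62, edgeR adjusted p = 0.805) and Cyp8b1 (0.65, edgeR adjusted p = 0.957). Cyp7a1 was called in all 13 alternative fits, but Cyp8b1 in 5, and not under DESeq2, limma-trend, library sizes only or 5 of the 6 fits that left out 1 liver (all but t-DHEA rat 1).

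Cell type markers were counted from lists as well, where 1.97% of all genes were called higher and 2.98% lower. By edgeR no gene in the table had an adjusted p below 0.05. Of 10 hepatocyte markers 1 was called, Tat, higher, and the list's summed level overlapped at 177500 to 192700 CPM in t-PBS and 187800 to 206500 CPM in t-DHEA. All 4 tested mesothelial markers were called lower, with a sum of 22.4 to 24.6 CPM in t-PBS and 1.72 to 11.0 CPM in t-DHEA. Of 4 tested bile duct markers 2 were called lower (18.2 to 22.8 against 9.05 to 15.8 CPM) and of 6 stellate cell markers 2 were called lower (524 to 694 against 426 to 514 CPM). Of 6 red cell markers 4 were called higher, with sums of 250 to 391 CPM in t-PBS and 417 to 827 CPM in t-DHEA. Of 5 endothelial markers 1 was called higher (207 to 323 against 303 to 312 CPM), and of 6 Kupffer cell markers (405 to 490 against 442 to 610 CPM) and 3 lymphocyte markers (21.7 to 25.5 against 17.6 to 23.8 CPM) none was called. The red cell marker Hbb was called in 7 of 13 alternative fits and the endothelial Kdr in 9 of 13. The bile duct marker Krt7 and the mesothelial Upk1b were called in 9 of 12 each. Of the stellate cell markers, Col1a1 was called in 12 of 13 and Col3a1 in 11 of 13. Tat, Krt19, Msln, Upk3b, Muc16, Hba1, Hba2 and Hbb-b1 were called in every alternative fit. The part of these cell types in the P450 results was not tested.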

How the data were processed

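The 6 liver libraries were sequenced as paired-end mRNA-seq. According to the study's methods and the submitters' processing notes, reads were filtered with Seqtk, mapped to Rnor_6.0 with HISAT2 2.0.4 and counted with StringTie 1.3.0. The deposited table gives the authors' raw counts and FPKM values per gene; the annotation release and strand setting are not given in the sources used here. The counts were tested across all genes with edgeR 4.0.16 in R 4.3.3 (TMM factors, filterByExpr, quasi-likelihood test), t-DHEA minus t-PBS, with an unadjusted p below 0.05 and a fold above 1.2, which are the study's thresholds. FPKM were used only to compare levels between genes, and CPM are TMM-normalised. The fit was tested on simulated data, and no pair of libraries agreed within sampling noise. Exact permutation tests were two-sided, on mean log2 CPM. Promoter windows were aligned with Biopython 1.88. Members and lists were chosen with earlier results of these data known. Named genes were those meeting the criteria, the 2 most abundant per subfamily, the 8 with the lowest p, the 5 at each end of the fold changes, the sex-predominant members and up to 3 genes per list by p; others named for position, copies or markers were chosen after their values were seen. Alternatives used DESeq2 1.42.0, limma 3.58.1, other scalings and filters, a replicate block and leaving out each liver.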

Additional observations from a re-analysis of the deposited data

How the results depend on the processing

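The 4 P450 calls numbered 3 to 5 under DESeq2, limma-trend, other scalings and other filters, and 2 to 6 when each liver was left out in turn. Without t-PBS rat 2 they fell to 2, Cyp2d5 and Cyp3a9. With a fold above 1.5, 1 row was called, Cyp3a9. The replicate numbers did not pair the samples (correlations of -0.0571, -0.0592 and -0.0551 between same-numbered livers), and with a replicate block 4 rows were called, Cyp2c13 entering and Cyp2a3 leaving. No member reached an adjusted p of 0.05 in any of these fits. The median log2 fold change was 0.11 with 1 value per subfamily from summed counts. With library sizes only, 4 rows did not overlap between groups, Cyp2b3, Cyp2d5, Cyp2f4 and Cyp2r1. The log2 ratio of the P450 share of counts was 0.049, and 0.13 with every P450-named row, an alternative chosen after seeing the data. The cause of these shifts was not tested, other than that fewer or other rows or livers entered. Without TMM factors the median of all genes moved to -0.037, Cyp2b2 to -0.011 and Cyp4f1 to -0.025. Cyp2b1 was 0.0037 under limma-trend and Cyp4a1 0.00030 without the filter. Leaving out livers, log2 fold changes that turned ranged from -0.25 to 0.25 for Cyp2b2, -0.62 to 0.29 for Cyp2b1, -0.27 to 0.19 for Cyp2c22, -0.21 to 0.045 for Cyp2d2, -0.30 to 0.027 for Cyp2d3, -0.080 to 0.22 for Cyp2t1, -0.15 to 0.51 for Cyp2u1, -0.15 to 0.24 for Cyp4a1, -0.069 to 0.090 for Cyp4f1, -0.023 to 0.14 for Cyp4f4 and -0.28 to 0.047 for Cyp4f17.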
